A study of Mus musculus with 20 samples.

Results

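Transcript levels of 10 immediate early response genes, Fos, Fosb, Jun, Junb, Egr1, Atf3, Ier2, Dusp1, Nr4a1 and Btg2, were examined in poly(A) RNA-seq libraries of 5 mouse organs with and without the RNA methyltransferase Nsun6. The members were the rows of the count table that carry these gene names. All 10 were found among its 55401 genes. They were followed library by library because this group is widely used as a readout of handling and stress.

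Immediate early genes are switched on within minutes of a stimulus without the need for new protein, and their mRNAs are short-lived. MAP kinase cascades, calcium and cyclic AMP signals reach their promoters through factors such as Srf with its Elk partners and Creb1, which are already present in the resting cell. Several of the products then act on the next layer of genes or shut the signal down, so a tissue that is dissected or kept warm before freezing can raise them.

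WT and Nsun6-KO C57BL/6J mice were compared, the KO carrying a CRISPR deletion of exons 3 to 4 of Nsun6, an enzyme that places 5-methylcytosine on RNA. The mice were 8-week-old females killed by cervical dislocation, and heart, kidney, liver, small intestine and spleen were snap-frozen. Each of the 10 combinations of organ and genotype had 2 libraries labelled replicate 1 and 2, giving 20 libraries with total counts of 15897446 to 44508197. The study calls them biological replicates. Whether organs came from the same animals, and what links libraries of the same number, was not stated in the sources used here. No treatment was given, and the animals were not compared with an unhandled control, so the level of these genes without dissection is not known.

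Nsun6 itself was counted over the whole gene, and its count does not separate the deleted exons from the rest. It stood at 9.82 and 6.19 CPM in the WT and 9.68 and 5.24 CPM in the KO small intestine, and at 5.44 and 5.83 CPM in the WT and 3.91 and 3.32 CPM in the KO kidney. In the heart it was at 7.02 and 6.65 CPM in the WT and 6.0 and 5.5 CPM in the KO, and in the liver at 7.23 and 4.83 CPM and 4.03 and 4.56 CPM. The KO libraries were thus the lower ones in kidney, heart and liver. In the spleen the KO libraries, at 4.02 and 6.63 CPM, overlapped with the WT libraries, at 6.07 and 4.36 CPM. No organ passed the test for Nsun6 (edgeR quasi-likelihood test, adjusted p of 0.999 or more), so these gene-level counts do not check the genotype labels. The study reports depletion of the protein in the KO by Western blot, for which it used liver, spleen and heart. That blot was not used here. CPM here are counts relative to library size, scaled by TMM factors over the 20 libraries.

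Several libraries stood apart in markers of other cells or regions. Spleen WT replicate 2 held 2994 CPM of 6 hepatocyte transcripts, of which Alb made up 2683 CPM, against 5.34 CPM in spleen WT replicate 1 and 105 and 154 CPM in the KO spleens. In the small intestine both replicate 1 libraries carried the distal markers Fabp6 and Slc10a2 at 9369 CPM in the WT and 10294 CPM in the KO, against 4.84 and 8.66 CPM in the replicate 2 libraries. The replicate 2 libraries instead carried the proximal markers Pdx1, Gata4 and Onecut2 at 643 and 548 CPM, against 1.34 and 2.90 CPM, so the replicate number goes with the segment of gut sampled. Small intestine KO replicate 1 also held 236 CPM of cardiomyocyte markers, against 8.11 to 26.9 CPM in the other 3, and 14.4 CPM of T cell markers, against 91.2 to 144 CPM. Small intestine WT replicate 1 held 307 CPM of B cell markers, against 1.56 to 51.2 CPM.

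In the heart, WT replicate 2 had 95.6 CPM of 5 adipocyte markers, against 2.24 CPM in WT replicate 1 and 2.77 and 31.3 CPM in the KO, and 29.6 CPM of 5 B cell markers, against at most 4.87 CPM in the other 3 heart libraries. The 4 atrial markers summed to 849 and 1482 CPM in the WT hearts and 81.1 and 527 CPM in the KO hearts. Myl4 was the highest of them in each heart library but KO replicate 1, where Nppa was. Kidney WT replicate 2 had 6387 CPM of 6 tubule markers, against 9192 to 11414 CPM in the other kidneys, and 371 CPM of 5 fibroblast markers, against 119 to 222 CPM. In bulk tissue fewer cells of a type and less RNA per cell cannot be told apart. The defining markers of each labelled organ were abundant in its own libraries, with cardiomyocyte markers at 36629 to 50009 CPM in the heart and hepatocyte markers at 168301 to 342062 CPM in the liver. Liver WT replicate 1 had the lowest of these hepatocyte sums, with the other livers at 295828 to 342062 CPM. It also held 15.8 CPM of cardiomyocyte markers, against 0.825 to 2.81 CPM in the other livers. The part of these markers in the liver values was not tested.

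RefSeq promoter windows of 300 bases, from 250 before to 50 after the start site, matched 8 of the 10 genes. Those of Egr1 and Ier2 were not used here. Windows of 4 members are shown because Fos was highest in the small intestine and lowest in the liver while Dusp1 was the reverse, Nr4a1 held the most copies of the motif marked in capitals, and Jun held none. The capitals mark TGACG on either strand, the core of the cyclic AMP response element that Creb1 and Atf proteins bind, and coordinates are on GRCm38.p6.
Fos, chr12:85473640-85473939, plus strand: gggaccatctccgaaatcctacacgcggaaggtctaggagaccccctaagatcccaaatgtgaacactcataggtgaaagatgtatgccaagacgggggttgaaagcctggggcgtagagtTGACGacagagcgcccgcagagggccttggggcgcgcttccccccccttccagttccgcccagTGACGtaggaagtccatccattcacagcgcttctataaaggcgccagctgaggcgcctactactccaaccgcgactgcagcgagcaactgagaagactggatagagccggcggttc
Jun, chr4:95052173-95052472, minus strand: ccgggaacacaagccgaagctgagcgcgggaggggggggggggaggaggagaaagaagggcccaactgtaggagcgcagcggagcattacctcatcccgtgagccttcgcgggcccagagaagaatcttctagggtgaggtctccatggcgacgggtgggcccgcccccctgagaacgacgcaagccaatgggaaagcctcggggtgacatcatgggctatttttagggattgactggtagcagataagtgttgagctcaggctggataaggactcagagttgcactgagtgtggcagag
Dusp1, chr17:26508423-26508722, minus strand: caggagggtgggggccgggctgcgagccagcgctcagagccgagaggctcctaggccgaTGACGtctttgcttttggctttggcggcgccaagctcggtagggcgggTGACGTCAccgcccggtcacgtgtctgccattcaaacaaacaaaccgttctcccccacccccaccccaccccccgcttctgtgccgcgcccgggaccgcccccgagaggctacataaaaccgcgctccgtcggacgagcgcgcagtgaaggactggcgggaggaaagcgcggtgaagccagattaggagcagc
Nr4a1, chr15:101266596-101266895, plus strand: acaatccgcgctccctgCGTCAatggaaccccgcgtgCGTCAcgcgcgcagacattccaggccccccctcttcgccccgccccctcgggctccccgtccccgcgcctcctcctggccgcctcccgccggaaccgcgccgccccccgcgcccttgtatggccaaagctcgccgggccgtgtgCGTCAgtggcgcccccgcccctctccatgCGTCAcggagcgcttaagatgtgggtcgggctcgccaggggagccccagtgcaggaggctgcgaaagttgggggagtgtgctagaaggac

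TGACG occurred in 7 of the 8 member windows and in 20.8% of 32851 promoter windows of the same length. The member windows were 58.7 to 72.3% G and C, and the windows compared were not matched for base composition. The full element TGACGTCA, which contains the core on both strands, was in 2 of the 8, those of Dusp1 and Btg2, and in 1.79% of all windows. TATAAA was found in the windows of Fos, 33 bases before the start, and Junb, at the annotated start itself, and in 13.6% of all windows. The AP-1 site TGANTCA, bound by Fos and Jun dimers, was in none of the 8 windows and in 7.81% of all windows, and the CArG box of Srf was in none of the 8 and in 1.63% of all. These are matches of letters in short windows and do not locate bound sites.

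The 10 genes differed widely among the organs. In a single fit of the 20 libraries with terms for organ and genotype, all 10 passed the test for any difference between organs (edgeR F test, adjusted p at most 0.00528 over 23159 genes), but so did 91.7% of all genes tested. Between single pairs of organs, where a call needed an adjusted p under 0.1 and a change of more than 2-fold, the share of all genes called ran from 35.6% for liver against kidney to 54.4% for small intestine against heart. With TMM scaling of all 20 libraries, kidney against heart had the most members called, where 39% of all genes were called. Of the 10 members 9 were higher in the heart, and Dusp1 alone was not called. Without heart WT replicate 2 that count was 5.

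The spleen exceeded the kidney in 7 members and fell below it in 0, where 51.2% of all genes were called, and the heart exceeded the liver in 6 and fell below it in 0, where 45.5% were called. The small intestine was higher than the kidney in 6 members and lower in 1 (47% of all genes called), higher than the liver in 5 and lower in 1 (47.7%), higher than the spleen in 4 and lower in 2 (50.4%), and higher than the heart in 4 and lower in 3. The liver was higher than the spleen in 2 and lower in 6 (53%), and higher than the kidney in 4 and lower in 0. Spleen and heart split evenly, with 3 members higher in each (53.3%). The single member lower in the small intestine than in the liver or kidney was Dusp1.

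**Figure D1:**
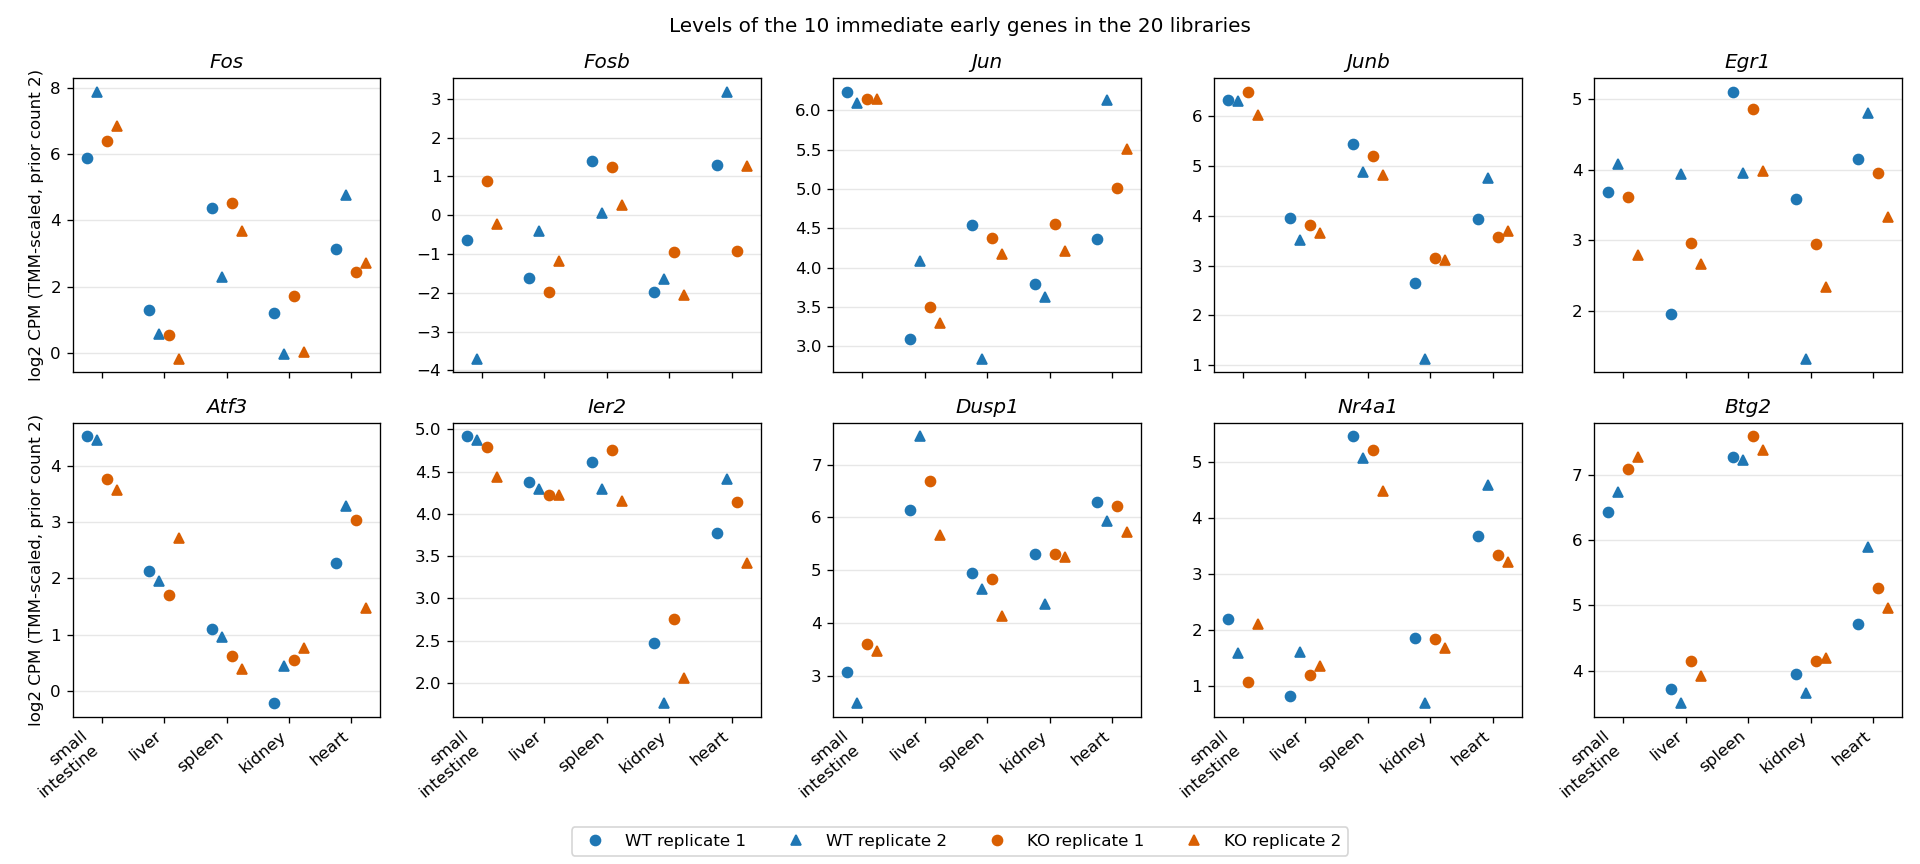
Level of each of the 10 genes, as log2 CPM, in the 4 libraries of each organ. Blue marks WT and orange KO, circles replicate 1 and triangles replicate 2, and each panel has its own vertical scale. Fos spans the widest range, with the small intestine highest, and Dusp1 is lowest in the small intestine.

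Among the subunits of the AP-1 transcription factor, Fos (ENSMUSG00000021250, chr12:85473890-85477273, plus strand), which pairs with Jun proteins, was highest in the small intestine. Its level there was 58.4 and 236 CPM in the WT and 83.4 and 116 CPM in the KO libraries, with a mean of 123 ± 78.5 CPM (SD, n = 4). The liver libraries held 2.37 and 1.38 CPM in the WT and 1.36 and 0.773 CPM in the KO. No liver library came near any small intestine library, and the ratio of the 2 means was 84.0. The order was small intestine, spleen, heart, kidney and liver, in which spleen and heart, and kidney and liver, were neighbours that were not called different. The small intestine exceeded the spleen by 2.93 ± 0.61 (SE) on the log2 scale (adjusted p = 0.000636).

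Fosb (chr7:19302696-19310051, minus strand), a close relative of Fos, was the least abundant of the 10 per kilobase of exon in every organ. Its highest mean was 3.54 ± 3.76 CPM (SD, n = 4) in the heart, where 1 library, WT replicate 2, held 9.01 CPM and the others 2.36, 0.450 and 2.35 CPM. Small intestine WT replicate 2 had 0 counts, which allows up to 0.119 CPM when 3 counts are taken as the limit for counting error. In its order of heart, spleen, small intestine, liver and kidney no neighbours were called different, and Fosb passed the filter on low counts within the small intestine, spleen and heart but not within the liver or kidney.

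Jun (chr4:95049034-95052222, minus strand, a gene of 1 merged exon) gave nearly the same level in all 4 small intestine libraries, 75.3 and 68.2 CPM in the WT and 70.7 and 70.8 CPM in the KO. That coefficient of variation of 4.11% was the lowest of any member in any organ. The heart libraries, at 20.4 and 69.9 CPM in the WT and 32.2 and 45.4 CPM in the KO, spread much further, and small intestine and heart were not called different. The antisense gene Junos shares exonic sequence with Jun. Junb (chr8:84976910-84978718, minus strand), which competes with Jun for partners, fell in the order small intestine, spleen, heart, liver and kidney, from 78.9 ± 10.1 to 6.45 ± 3.13 CPM (SD, n = 4 each). Of these neighbours, heart and liver were not called different.

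Egr1 (ENSMUSG00000038418, on chromosome 18), a zinc finger transcription factor induced through Srf, had the smallest ratio between its highest and lowest organ with TMM scaling. Its spleen libraries held 34.2 and 15.4 CPM in the WT and 28.9 and 15.8 CPM in the KO, and its kidney libraries 12 and 2.44 CPM in the WT and 7.67 and 4.99 CPM in the KO. The ratio of these highest and lowest means was 3.48, and no neighbours in the order spleen, heart, small intestine, liver and kidney were called different. In the spleen both replicate 1 libraries lay above both replicate 2 libraries.

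Atf3 (chr1:191170296-191218039, minus strand), a stress-induced member of the Atf/Creb family, was highest in the small intestine at 17.5 ± 5.69 CPM and lowest in the kidney at 1.28 ± 0.351 CPM (SD, n = 4 each). Small intestine and heart differed by 1.46 ± 0.37 on the log2 scale (SE, adjusted p = 0.00254), while heart and liver, and spleen and kidney, were not called different. Nr4a1 (chr15:101254269-101274795, plus strand), an orphan nuclear receptor induced by antigen receptor signals in lymphocytes, was highest in the spleen. Its spleen libraries held 44.1 and 33.7 CPM in the WT and 37.4 and 22.4 CPM in the KO. Every heart library lay below all of these but WT replicate 2, at 24 CPM, which exceeded the lowest spleen library. The spleen exceeded the heart by 1.31 ± 0.34 on the log2 scale (SE, adjusted p = 0.00294), and small intestine, kidney and liver formed a low group whose neighbours were not called different.

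Dusp1 (chr17:26505590-26562128, minus strand), a phosphatase that switches MAP kinases off, had the reverse order of Fos at both ends. It was highest in the liver, at 70.2 and 185 CPM in the WT and 104 and 50.4 CPM in the KO, and lowest in the small intestine, at 8.37 and 5.51 CPM in the WT and 12.1 and 11.1 CPM in the KO. The small intestine was lower than the spleen, its nearest neighbour in the order, by -1.46 ± 0.35 on the log2 scale (SE, adjusted p = 0.00181), and none of the neighbours liver, heart, kidney and spleen were called different. The gene model used in the count table shares exonic sequence with Ergic1 on the opposite strand.

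Btg2 (chr1:134075170-134079120, minus strand), an antiproliferative gene, was the most abundant member per kilobase in the spleen. It stood at 154 and 150 CPM in the WT and 193 and 167 CPM in the KO spleens and at 86.5 and 106 CPM in the WT and 135 and 155 CPM in the KO small intestines. These 2 organs were not called different, and both exceeded the heart, with the small intestine higher than the heart by 1.59 ± 0.22 on the log2 scale (SE, adjusted p = 6.69e-06). Ier2 (chr8:84661331-84662854, minus strand), a small nuclear protein induced by growth factors, was lowest in the kidney. Its means of 27.2 CPM in the small intestine, 22.2 in the spleen, 19.3 in the liver and 15.8 in the heart had no neighbours that were called different, and the kidney was lower than the heart at 4.9 ± 1.5 CPM (SD, n = 4). The small intestine exceeded the heart by 0.79 ± 0.24 on the log2 scale (SE, adjusted p = 0.00902), short of the 2-fold a call needed.

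Scaling decided part of these organ orders. With total counts alone the median of all genes moved from -0.21 to -1.40 on the log2 scale for liver against spleen and from 0.19 to 0.76 for small intestine against liver. The highest organ stayed the same for 9 of 10 members. The exception was Ier2, whose highest organ changed from small intestine to spleen. With that scaling it stood at 33.2 CPM in the spleen, 26.6 CPM in the small intestine and 12.7 CPM in the liver. The lowest organ changed from kidney to liver for Fosb and Egr1. For liver against kidney the split of calls changed from 4 members higher in the liver and 0 in the kidney to 1 and 2, for liver against spleen from 2 and 6 to 0 and 8, for spleen against heart from 3 and 3 to 5 and 1, for small intestine against spleen from 4 and 2 to 3 and 4, and for small intestine against liver from 5 and 1 to 9 and 1. For kidney against heart it changed from 0 and 9 to 0 and 8, and for liver against heart from 0 and 6 to 0 and 7. Small intestine against liver then had the most members called.

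Per kilobase of merged exon, Fos led the small intestine with 52.5 CPM per kilobase, just ahead of Btg2 and Junb with 44.0 and 43.6. That mean rested on WT replicate 2, with 100 for Fos. In the other small intestine libraries Fos held 24.8, 35.5 and 49.4, and Junb led both replicate 1 libraries and Btg2 KO replicate 2. Btg2 led the spleen with 60.5, and Dusp1 led the liver, kidney and heart with 30.9, 10.4 and 20.1, in each of their libraries but heart WT replicate 2, where Jun led. Fosb was last in each organ, with 0.0435 to 0.567 CPM per kilobase.

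**Figure D2:**
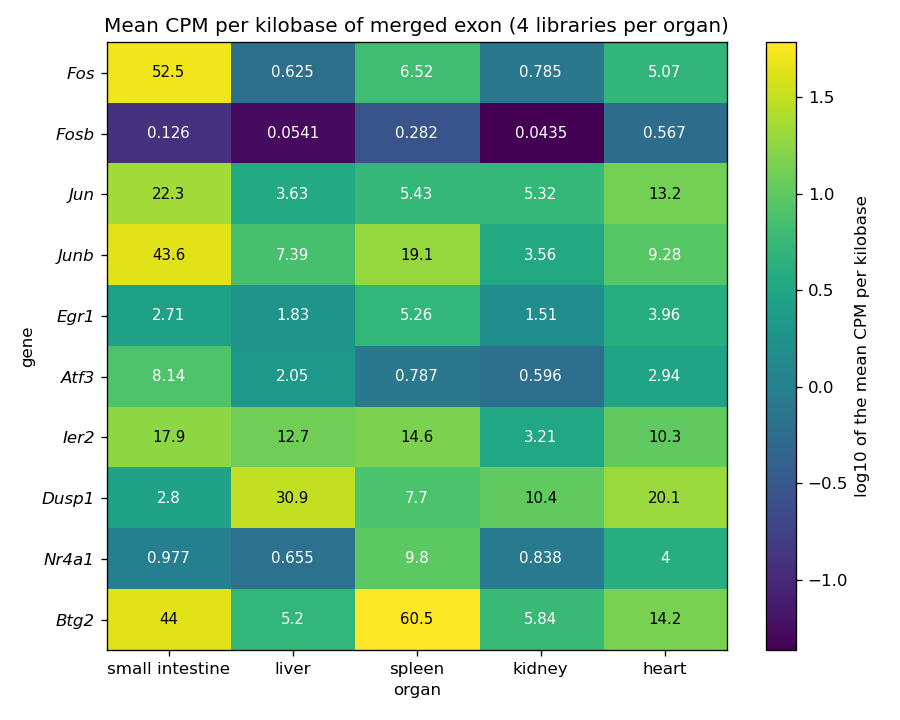
Mean level of each gene in each organ (n = 4 libraries), as CPM per kilobase of merged exon, printed in each cell and coloured on a log10 scale. The highest cell is Btg2 in the spleen at 60.5 and the lowest Fosb in the kidney at 0.0435.

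The comparison of KO with WT asked whether loss of Nsun6 went with a different state of these genes in any organ. None of the 10 was called in any organ by the edgeR quasi-likelihood test (adjusted p at least 0.999), where the share of all genes called was 0.0509% for liver, 0.223% for spleen and 0% each for heart, kidney and small intestine. Unadjusted p-values under 0.05 were reached by 1 member in the small intestine and 3 in the heart, where 2.39% and 0.703% of all genes did so, and by none in the liver, spleen and kidney, where 4.70%, 5.14% and 0.638% did. With a term for replicate number in the edgeR fit, 2 members in the small intestine, 5 in the heart and 1 in the spleen did. None did in the liver and kidney, no member was called, and the share of all genes is not given here. DESeq2 also called none of them in any organ. Its share of all genes called was 0.343% for small intestine, 0.356% for liver, 1.34% for spleen, 0.0107% for heart and 0% for kidney. A missed threshold with 2 libraries per group does not show that the genotypes act alike.

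The heart was the organ in which all members leaned the same way. The log2 difference of KO from WT was negative for 10 of 10, with a median of -0.63 against -0.01 over all 16632 genes tested there. Fos stood at 8.70 and 27.2 CPM in the WT and 5.32 and 6.54 CPM in the KO hearts. The 2 groups did not overlap, though WT replicate 2 lay far above the other 3 libraries. The difference was -1.62 ± 0.54 on the log2 scale (SE, unadjusted p = 0.0196 from the edgeR test). Nr4a1 showed the same arrangement, with 12.8 and 24 CPM in the WT and 10 and 9.26 CPM in the KO, as did Egr1, with 17.7 and 27.9 CPM in the WT and 15.4 and 10 CPM in the KO.

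Fosb gave the lowest value in the heart, -1.96 ± 0.85 (SE), and Dusp1 the value nearest 0, -0.16 ± 0.28, both on the log2 scale. In the heart Fos, Fosb, Junb, Egr1 and Nr4a1 had each KO library below each WT library, an arrangement that 8.64% of all 16632 genes shared. That share is not given here for the other comparisons described as without overlap. WT replicate 2 was the highest heart library for 9 of the 10 members, all but Dusp1. Without it the median difference was -0.33, with 6 members lower and 4 higher in the KO, and Dusp1 was positive without KO replicate 2 or WT replicate 1. Without WT replicate 1, Fos was the sole member called, with 0.12% of all genes. The same WT replicate 2 library was the highest for the adipocyte, B cell and atrial markers given above, and their part in the result was not tested.

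**Figure D3:**
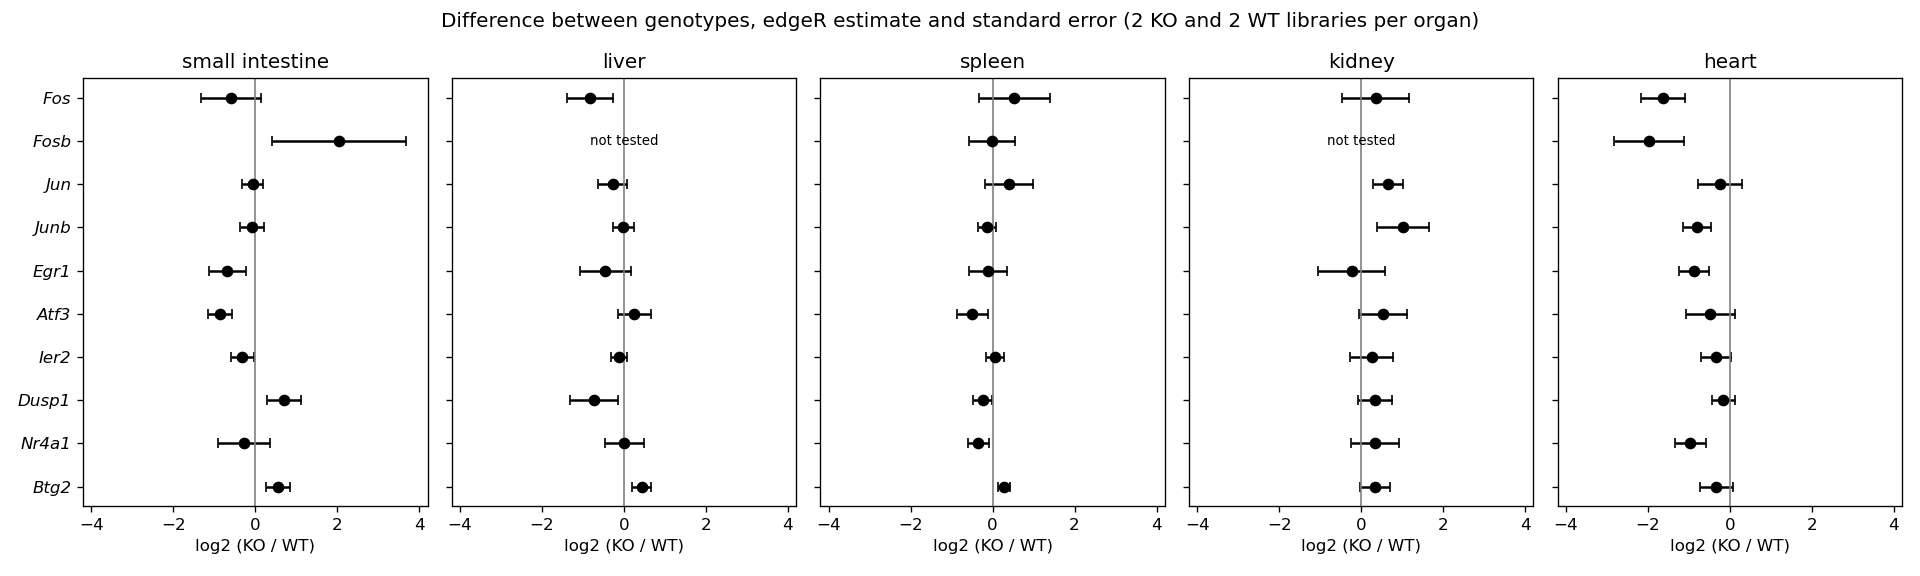
Log2 difference between KO and WT for each gene in each organ, as the edgeR estimate with its standard error (2 libraries per genotype). Fosb was not tested in the liver and kidney. All 10 points of the heart lie left of 0 and 8 of the 9 points of the kidney lie right of it, and none was called.

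The kidney leaned the other way, with 8 of 9 tested members higher in the KO and a median log2 difference of 0.34 against -0.03 over all genes. Junb had the highest value, 1.02 ± 0.63 (SE). It stood at 6.22 and 2.11 CPM in the WT and 8.87 and 8.59 CPM in the KO, so the genotypes did not overlap. Egr1 had the lowest value, -0.24 ± 0.81, and changed sign without WT replicate 1 or KO replicate 2. Kidney WT replicate 2 was the lowest kidney library for 8 of the 10 members, and without it the median was 0.08, with 5 members on each side of 0. Without WT replicate 1 instead, Junb and Egr1 were called, but so were 16.1% of all genes.

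In the small intestine 3 members were higher and 7 lower in the KO, with a median log2 difference of -0.18. Without WT replicate 1 the members split 5 and 5, with a median of -0.034. Atf3 had the lowest value, -0.86 ± 0.30 (SE, unadjusted p = 0.0397), from 23 and 21.9 CPM in the WT and 13.5 and 11.8 CPM in the KO. The WT libraries were close together although their gut segments differed, and the genotypes did not overlap. Fosb had the highest value, 2.04 ± 1.63, from the WT library with 0 counts. Smooth muscle markers summed to 283 and 447 CPM in the WT and 2447 and 1367 CPM in the KO small intestine, and their part in these values was not tested.

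In the liver 3 of 9 tested members were higher in the KO, with a median of -0.12. Without WT replicate 2 the median turned to 0.19, with 6 higher and 3 lower. Fos was lowest at -0.83 ± 0.57 and Btg2 highest at 0.43 ± 0.24 (SE) on the log2 scale, the latter from 13.1 and 11.2 CPM in the WT and 17.7 and 15.1 CPM in the KO. Of the 10 spleen values 4 were positive and 6 negative, their median being -0.06. Fos was highest at 0.53 ± 0.86 and Atf3 lowest at -0.50 ± 0.38 (SE), and Fos became -0.15 without the WT replicate 2 library that carried hepatocyte transcripts. The direction of the spleen median turned with the library left out, from -0.46 without KO replicate 1 to 0.28 without KO replicate 2. Of the 10 members 9 were lower in the KO without WT replicate 2, and 8 were higher without KO replicate 2. Removing 1 library changed calls in these organs too. Without WT replicate 1, Egr1 was called in the liver, where 1.25% of all genes then were, and Fos and Jun in the spleen, where 1.86% were.

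A genotype effect shared by the 5 organs, estimated from the 20 libraries together, was called for none of the members (edgeR, adjusted p = 1.0 as the lowest), with 3 higher and 7 lower, a median log2 difference of -0.09 and 0.00432% of all genes called. DESeq2 called none either, and none had an unadjusted p under 0.05. Btg2 came nearest, at 0.26 ± 0.14 (SE, unadjusted p = 0.0733). Although the heart and kidney leaned in opposite directions, no member passed the test that the genotype difference varies among organs (edgeR interaction F test, unadjusted p at least 0.0895, 0% of all genes called).

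Replicate number was the second axis examined. In the spleen, replicate 2 was below replicate 1 for 10 of 10 members in the WT pair and again for 10 of 10 in the KO pair. Fos stood at 20.7 and 23.1 CPM in the replicate 1 libraries and at 4.85 and 12.7 CPM in the replicate 2 libraries. Egr1 stood at 34.2 and 28.9 CPM against 15.4 and 15.8 CPM. For both genes the replicate numbers did not overlap, an arrangement whose share over all genes is not given here. The difference was -1.41 ± 0.33 on the log2 scale for Fos and -0.95 ± 0.22 for Egr1 (SE, unadjusted p = 0.00354 and 0.00236), and Btg2 had the value nearest 0, -0.06 ± 0.19.

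After adjustment over 18834 genes none of the members was called in the spleen by edgeR (adjusted p = 1.0, 0.00531% of all genes called), 4 of 10 had an unadjusted p under 0.05, as did 1.93% of all genes, and DESeq2 called Fos and 0.158% of all genes. The median of the members was -0.47 and that of all genes 0.02. Hepatocyte transcripts were higher in replicate 2 of both genotypes in the spleen, at 2994 against 5.34 CPM in the WT and 154 against 105 CPM in the KO, and erythroid markers too, at 7564 against 5707 CPM in the WT and 18455 against 12718 CPM in the KO. The neutrophil genes S100a8 and S100a9 were higher in replicate 2 as well, S100a8 at 142 against 74.8 CPM in the WT and 114 against 42.4 CPM in the KO, and S100a9 at 223 against 114 CPM and 173 against 69.5 CPM. The 6 myeloid markers that include them summed to 1701 against 1975 CPM in the WT and 2029 against 1673 CPM in the KO, and B cell markers were lower, at 2425 against 2796 CPM and 1916 against 2277 CPM. The part of these markers in the result was not tested.

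In the heart, 3 members were called higher in replicate 2 than in replicate 1, where 4.88% of all 16632 genes were called. Fosb rose by 2.09 ± 0.47, Jun by 1.13 ± 0.28 and Fos by 1.0 ± 0.32 on the log2 scale (SE, edgeR adjusted p = 0.00424, 0.0283 and 0.0585). Dusp1 had the lowest value, -0.43 ± 0.19, and was not called. Jun stood at 20.4 and 32.2 CPM in replicate 1 and 69.9 and 45.4 CPM in replicate 2, without overlap, and Fosb at 2.36 and 0.450 CPM against 9.01 and 2.35 CPM, which overlapped. Fos was not called by DESeq2 or with median-of-ratios size factors.

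The heart pairs were unlike in size. In the WT pair 9 of 10 members were higher in replicate 2, by 1.01 on average on the log2 scale, and in the KO pair 4 were higher and 6 lower, with an average of -0.07. From replicate 1 to replicate 2 the adipocyte markers went from 2.24 to 95.6 CPM in the WT and from 2.77 to 31.3 CPM in the KO hearts, the atrial markers from 849 to 1482 CPM and from 81.1 to 527 CPM, and the erythroid markers from 2016 to 1404 CPM and from 3709 to 731 CPM. Their part in the calls was not tested. In the header of the count table the replicate 2 columns of the heart, in both genotypes, carry the tag pre, which no other column has and whose meaning is not stated in the sources used here. The heart replicate 2 libraries were also the deeper ones, with 36090637 and 41763236 counts against 17959542 and 15897446.

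In the kidney 8 of 9 tested members were lower in replicate 2, with a median log2 difference of -0.71 against 0.03 over all genes. Fos was lowest at -1.56 ± 0.72 and Atf3 highest at 0.42 ± 0.77 (SE). The WT pair moved further than the KO pair, with medians of -0.83 and -0.25 in log2 CPM over the 10 members. Fibroblast markers went from 119 to 371 CPM in the WT and from 146 to 222 CPM in the KO pair, and endothelial markers from 105 to 233 CPM and from 152 to 271 CPM, and their part in the values was not tested. None of the members was called by edgeR (adjusted p at least 0.904, 0% of all genes called), and 1 had an unadjusted p under 0.05, as did 3.87% of all genes. DESeq2 called none of the members and 0.115% of all genes. In the liver 5 members were higher and 4 lower in replicate 2, from -0.81 ± 0.58 for Fos to 0.83 ± 0.59 for Egr1, with none called by edgeR or DESeq2, none with an unadjusted p under 0.05, against 5.25% of all genes, and 0.0699% of all genes called. The value of Egr1 came from the WT pair, at 3.79 and 15.2 CPM, against 7.66 and 6.22 CPM in the KO pair.

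In the small intestine, where the replicate number went with the gut segment and 7.64% of all genes were called, no member was called by edgeR and 1 of 10 had an unadjusted p under 0.05, below the 21.3% of all genes that did. Fos had the highest value, 1.27 ± 0.42 (SE, edgeR adjusted p = 0.207), from 58.4 and 83.4 CPM in the distal replicate 1 libraries to 236 and 116 CPM in the proximal replicate 2 libraries, without overlap, and DESeq2 called it along with 12.7% of all genes. Fosb had the lowest value, -2.37 ± 1.30. The values of Jun, Junb, Atf3, Ier2 and Egr1 lay between -0.21 and -0.05 on the log2 scale. For Egr1 the pairs moved in opposite directions, from 12.8 to 16.8 CPM in the WT and from 12.2 to 6.84 CPM in the KO. Junb went from 80.1 to 79.8 CPM in the WT pair and from 90.3 to 65.6 CPM in the KO pair.

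**Figure D4:**
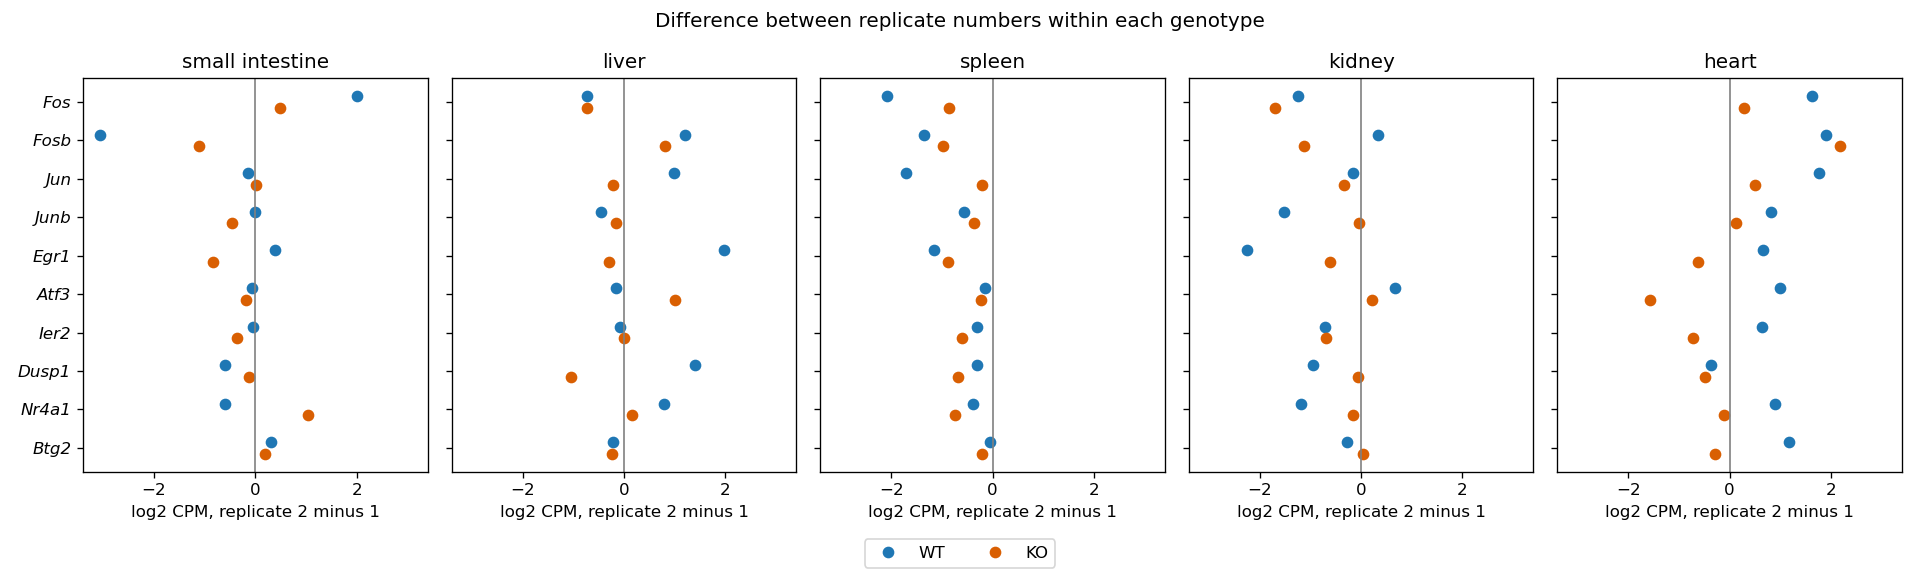
Difference in log2 CPM between replicate 2 and replicate 1 within each genotype (blue WT, orange KO, 1 library at each end), for each gene and organ. All 20 points of the spleen lie left of 0, and 9 of the 10 WT points of the heart lie right of it.

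Averaged over the 10 members, the log2 CPM of a library ran from 1.53 in kidney WT replicate 2 to 4.78 in heart WT replicate 2. The other heart libraries lay between 3.53 and 3.76 and the other kidneys between 2.16 and 2.61. In the spleen the replicate 1 libraries, at 4.43 and 4.32, lay above the replicate 2 libraries, at 3.62 and 3.75, and the 4 small intestine libraries were close together, at 4.08 to 4.38. The lowest of these 4 was WT replicate 2, with 0 counts of Fosb. With Fosb left out it was the highest of its organ at 4.95, the others being at 4.74 to 4.81. Heart WT replicate 2 was then at 4.95 too.

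**Figure D5:**
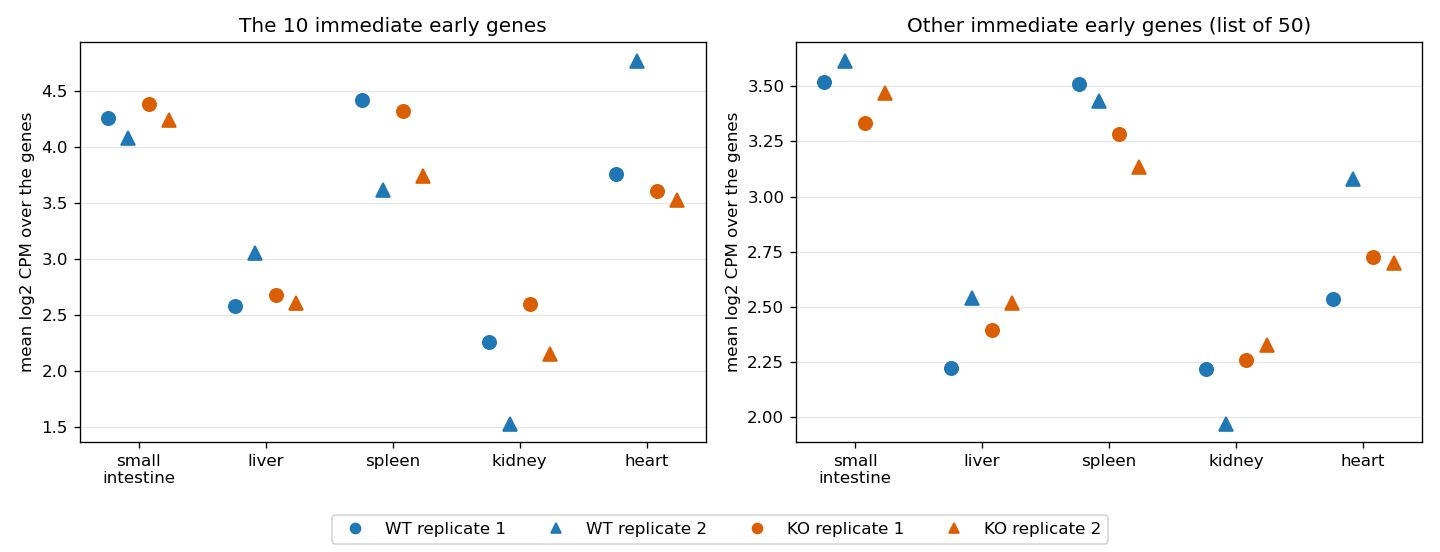
Mean log2 CPM per library over the 10 genes (left) and over a list of 50 other immediate early genes (right). Each point is a library, blue WT and orange KO, circles replicate 1 and triangles replicate 2. Heart WT replicate 2 is the highest heart library and kidney WT replicate 2 the lowest kidney library in both panels.

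A list of 50 other immediate early genes, chosen for what they are known to do, was examined next to the members. For KO against WT none of them was called in any organ. In the spleen 5 of the 47 tested were higher and 42 lower in the KO, with a median of -0.23 against 0.01 over all genes. Ppp1r15a, a stress-induced phosphatase subunit, had the highest value there, 1.03 ± 0.19 (SE, edgeR adjusted p = 0.145), and the chemokine gene Cxcl1 the lowest, -1.12. Erythroid markers stood at 5707 and 7564 CPM in the WT and 12718 and 18455 CPM in the KO spleens, and their part in this lean was not tested. In the heart 28 of 47 were lower, with a median of -0.20, from -1.29 for Ptgs2, a prostaglandin synthase, to 0.71 for the clock gene Per1. In the small intestine 30 of 46 were lower, from -3.27 for Dusp2 to 2.65 for Npas4. In the liver 26 of 41 were lower, from -1.17 for Klf4 to 0.97 for Dusp4, and in the kidney 26 of 44 were higher, from -0.74 for Cebpb to 1.21 for Socs3, an inhibitor of cytokine signalling.

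By replicate number, Per1 stood out in this list. It was called higher in replicate 2 of the small intestine, liver and heart, by 2.17, 1.77 and 1.72 on the log2 scale (edgeR adjusted p = 0.0575, 0.0824 and 0.0194). In the liver it stood at 21.4 and 26.7 CPM in replicate 1 and at 100 and 67.2 CPM in replicate 2, without overlap. In the heart the same comparison was 25.5 and 19.6 CPM against 51.0 and 107 CPM. The kidney WT pair went the other way, from 31.1 to 11.9 CPM. Per1 follows the time of day and responds to glucocorticoids.

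The heart calls of replicate 2 also took in Fosl2, Zfp36, which destabilises early response mRNAs, and Cebpd, all higher, so 4 of 47 tested were higher and 0 lower, where 4.88% of all genes were called. In the small intestine 5 of 46 were higher, namely Dusp5, Errfi1, Per1, Areg and Bhlhe40, and Socs3 was lower, where 7.64% of all genes were called. In the liver Per1 was the sole call, where 0.0699% of all genes were called. In the spleen and kidney none was called by edgeR, while 5 in each had an unadjusted p under 0.05, as did 1.93% and 3.87% of all genes. The spleen list had 29 of 47 lower in replicate 2, with a median of -0.12, against -0.47 for the members.

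Genes that carry the signal to the members were examined in the same way. Of 27 kinases and transcription factors, among them Srf, Elk1, Creb1 and Mapk3, none was called for KO against WT in any organ. Their lowest and highest log2 differences were -0.23 for Creb1 and 0.48 for Rps6ka1 in the heart, -0.43 for Rps6ka3 and 0.57 for Srf in the kidney, -0.47 for Crem and 0.49 for Elk1 in the small intestine, -0.34 for Atf2 and 0.34 for Map2k2 in the liver, and -0.29 for Mrtfb and 0.27 for Atf1 in the spleen. By replicate number 3 were called in the small intestine, Rps6ka5 and Map2k2 higher and Rps6ka3 lower in replicate 2, where 7.64% of all genes were called, and none in the other organs.

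Of 10 glucocorticoid-responsive genes, which report the stress hormone axis, all 10 were higher in replicate 2 of the liver, with a median log2 difference of 1.02 and none called. All 9 tested were higher in the kidney, with a median of 0.81 and none called. In the heart 8 of 10 were higher and 4 called, Fkbp5, Tsc22d3, Zbtb16 and Cdkn1a, and in the small intestine 8 of 10 were higher and Tsc22d3, Sgk1 and Mt1 called, against 4.88% and 7.64% of all genes called in these organs. In the spleen 6 of 9 were higher, with none called, while all 10 members were lower. For KO against WT none was called in any organ.

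Of 10 heat shock genes, Hspb1, a small chaperone, was the sole call for KO against WT. It was higher in the KO liver by 2.67 ± 0.31 on the log2 scale (SE, edgeR adjusted p = 0.0431). By replicate number, Hspb1 was lower in replicate 2 of the heart by -1.10 ± 0.19 (SE, adjusted p = 0.000327), where 4.88% of all genes were called, and 9 of the 10 had lower values there, with a median of -0.60. In the spleen all 10 were higher in replicate 2 in the fit of both genotypes, with a median of 0.22 and none called. The 2 spleen pairs were unlike. The sum of the 10, of which Hspa8 was the largest part, went from 1948 to 2481 CPM in the WT and from 2515 to 2400 CPM in the KO. Hspb1 went from 25.3 to 33.3 CPM in the WT and from 18.9 to 14.8 CPM in the KO. The mean log2 CPM of the 10 still rose in the KO pair, from 5.82 to 5.90.

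Likeness between genes was measured as Pearson's r with the mean of the 10 members over the 20 libraries, after removing each group's mean, so that the 2 libraries of a group mirror each other. Among 10852 other genes with at least 10 CPM on average, Cnksr1 (0.890), Exoc7 (0.871), Arf3 (0.869), Fam3a (0.860), Ddx56 (0.849), Dbnl (0.828), Scap (0.812) and Rassf7 (0.809) were the most alike, and none of these is in the list of other immediate early genes. Cnksr1 was abundant in the small intestine, at 43.9 to 49.3 CPM, but had 1 to 14 counts in the spleen and 2 to 6 in the liver libraries. The highest of that list were Trib1 (0.798) and Ppp1r15a (0.752), and the median of its 31 genes compared was 0.24, against -0.03 for all genes. Within the members, r of each gene with the mean of the other 9 ran from 0.05 for Atf3 to 0.79 for Jun, with Ier2 at 0.74, Egr1 at 0.70, Nr4a1 at 0.68 and Dusp1 at 0.36. These values rest on libraries that also differ in depth and in the markers given above.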

How the data were processed

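Poly(A) RNA of 20 libraries (5 organs, 2 genotypes, 2 libraries each) was sequenced from strand-specific libraries. The deposited table holds raw counts per gene, which the authors made with cutadapt, HISAT2 2.1.0 (mm10) and featureCounts 2.0.1 on Ensembl exons (GRCm38), summing the exons of a gene. The command kept in the table shows no strand or pair option, whereas the study's methods name stranded counting, so overlapping antisense genes could share reads. The 37 mitochondrial genes are listed at 0 counts in every library. Totals were 15897446 to 44508197 per library.

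Groups came from the sample titles. Counts were tested with edgeR 4.0.16 (R 4.3.3, TMM factors, filterByExpr, quasi-likelihood test with robust estimation), KO against WT in each organ, replicate 2 against 1 with genotype as a term, and organs, the shared genotype effect and the organ by genotype interaction in 1 fit of all libraries. A gene was called at a Benjamini-Hochberg adjusted p under 0.1 over all genes and a change over 2-fold. SE is the log2 difference divided by the square root of F. DESeq2 1.42.0, the kind of test named in the study's methods, was an alternative. Levels are CPM scaled by TMM over the 20 libraries, log2 CPM has a prior count of 2, and between-gene comparisons are per kilobase of merged exon.

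Named were all members, in each contrast the highest, the lowest and every called member, in the other lists every called gene and the highest and lowest value for KO against WT, and the 8 genes most alike. Ppp1r15a and Trib1 among the likeness values were named after their values were seen. The members and lists were chosen with earlier results of these data known, and the proximal and distal gut markers after the files were seen. The scripts were tested on simulated data. Alternatives were other scalings, no filter, DESeq2, other thresholds, a replicate block and leaving out single libraries. Promoter sequences are from RefSeq (GRCm38.p6).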

Additional observations from a re-analysis of the deposited data

Results flagged for a closer look

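Kidney WT replicate 2 lay far below the other 3 kidney libraries for 2 of the members. Dusp1, the MAP kinase phosphatase, stood at 20.4 CPM there against 37.9 to 39.7 CPM in the others. That was a gap of 0.932 of the whole range in log2 CPM. Nr4a1, the nuclear receptor, stood at 1.53 CPM against 3.14 to 3.57 CPM, a gap of 0.847 of the range in log2 CPM. Gaps on the scale of CPM itself were not tested. Both gaps are above Dixon's critical value for 4 libraries, and they are 2 of 50 combinations of gene and organ looked at, of which chance passes about 1 in 20. The same library had the lowest kidney tubule markers and the highest fibroblast markers among the kidneys, and the part of these in the result was not tested.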

How the results depend on the processing

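For KO against WT the direction of the members' median was kept in each organ by other scalings, no filter, DESeq2, a fit of all 20 libraries and the replicate block. Calls appeared in a few cases where there had been none. Without a filter on low counts 1 member was called in the heart (0.0465% of all genes), and leaving out 1 library, which assumes that the lone library left varies like the others, gave 0 to 1 calls in heart and liver and 0 to 2 in kidney and spleen, where up to 0.12%, 1.25%, 16.1% and 1.86% of all genes were called. Leaving out 1 library moved the median log2 difference to between 0.076 and 0.84 for kidney, -0.38 and 0.19 for liver, -0.98 and -0.33 for heart, -0.46 and 0.28 for spleen, and -0.16 and -0.034 for small intestine. It also turned Fos in the spleen, which ran from -0.15 to 1.88, Egr1 in the kidney, from -0.94 to 1.37, and Dusp1 in the heart, from -0.40 to 0.067. The replicate block turned Egr1 in the kidney to 0.15 and gave 0 calls of members in every organ. The deviations of same-numbered libraries correlated by 0.568 in the small intestine, 0.364 in the heart, 0.125 in the kidney, 0.041 in the liver and 0.007 for the spleen, and with 2 pairs per organ no label says what a number marks. In the small intestine same-numbered libraries share the gut segment by their markers, in the heart both replicate 2 columns carry a tag, pre, of unstated meaning, and elsewhere they share only a number as far as the labels say.

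For replicate 2 against replicate 1, DESeq2 called 1 member each in spleen and small intestine, and no filter called 1 in the spleen, each time Fos, along with 0.158%, 12.7% and 0.417% of all genes. With total counts alone the median of the small intestine was -0.37, as the median of all genes there moved from -0.03 to -0.26. The WT and KO pairs taken alone gave medians of -0.080 and -0.21 in the liver, over the 9 members tested there (0.36 and -0.18 with Fosb, which failed the filter), and 0.95 and -0.21 in the heart, the KO pair alone gave -0.16 in the kidney, again over 9 members (-0.25 with Fosb), and Egr1 in the liver was -0.30 in the KO pair alone. For organs, total counts alone called 10 members for small intestine against liver, the WT libraries alone called 5 for liver against spleen and 3 for spleen against heart, and leaving out 1 library gave 5 to 10 for kidney against heart. The cause was not tested. Leaving out 1 library from a replicate contrast leaves no residual degrees of freedom and was not run, and 2 libraries per group limit every call.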
